A study of Homo sapiens with 36 samples.

Results

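The genes for the Jun family, JUN, JUNB and JUND, encode the proteins that 3 of the antibodies in this study were raised against, so the peak lists show where these proteins lay on their own genes. The 3 genes were chosen by name from 20033 protein-coding genes of GENCODE release 44. All peaks within 3 kb of any of their start sites were collected, and Jun-family peaks within 100 kb around them. In all, 73 of the 475211 peaks of the 16 lists touched these 3 promoter windows.

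Chromatin immunoprecipitation and sequencing (ChIP-seq) had been done on 2 human cell lines crosslinked with formaldehyde: A549, from a lung adenocarcinoma, and BEAS-2B (B2B), of immortalized bronchial epithelium that is not cancerous. The labels name no treatment. The 36 samples fell into 18 groups of 2 replicates, and the 2 input groups with 4 samples were not analysed here. Jun, JunB, JunD, RNA polymerase II (pol II), Med1 and the histone marks H3K4me3 and H3K27ac had a list in each line, and CTCF and Rad21 were analysed in B2B alone. Each list came from a pool of its 2 replicates, so no value below has a replicate error, no test between the lines was possible, and the intervals given cover counting error only.

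Jun, JunB and JunD are basic leucine zipper proteins that bind DNA as pairs, either with each other or with a Fos or ATF protein, and these pairs make up the transcription factor AP-1. Pairs with Fos prefer a palindrome of 7 bases, TGACTCA, and pairs with ATF proteins prefer one of 8 bases, TGACGTCA, the cAMP response element. All 3 genes lack introns in their main transcript and are immediate early genes or close relatives of them. JUN is a textbook case of a gene that its own product activates, through AP-1-like octamers in its promoter, and Jun itself is switched on by phosphorylation through the JNK kinases.

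The promoters differ in which of these sequences they hold, and are shown here because the Jun-family peaks described below sit on them. Each line gives the 250 bases before the start site in RefSeq (GRCh38.p14), read 5′ to 3′ on the strand of the gene. Exact copies of the octamers TGACATCA, TTACCTCA and TGACGTCA are in capitals. Near matches, such as cgacgtca in JUND, were not searched for or marked.
JUN, chr1:58784048-58784297, minus strand: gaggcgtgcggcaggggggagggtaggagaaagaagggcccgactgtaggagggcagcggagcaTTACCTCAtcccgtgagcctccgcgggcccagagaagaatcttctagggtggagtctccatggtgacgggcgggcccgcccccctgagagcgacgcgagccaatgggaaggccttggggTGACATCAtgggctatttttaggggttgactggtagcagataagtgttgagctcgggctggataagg
JUNB, chr19:12791236-12791485, plus strand: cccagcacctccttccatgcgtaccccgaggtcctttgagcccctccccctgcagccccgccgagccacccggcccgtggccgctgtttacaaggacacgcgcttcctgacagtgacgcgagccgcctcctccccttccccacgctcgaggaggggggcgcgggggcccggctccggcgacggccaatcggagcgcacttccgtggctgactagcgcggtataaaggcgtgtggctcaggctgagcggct
JUND, chr19:18281623-18281872, minus strand: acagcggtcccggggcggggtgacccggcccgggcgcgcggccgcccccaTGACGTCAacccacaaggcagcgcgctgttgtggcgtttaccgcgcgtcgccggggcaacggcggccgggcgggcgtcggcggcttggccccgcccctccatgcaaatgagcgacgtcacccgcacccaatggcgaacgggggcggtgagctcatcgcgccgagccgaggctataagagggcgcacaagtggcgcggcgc

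JUN held TGACATCA at 67 to 60 bases before the start and TTACCTCA at 186 to 179 bases before it, which are the known JUN octamers. Searched on both strands, TGACATCA was found in 2.37% and TTACCTCA in 0.644% of 34943 RefSeq promoter windows of the same length. JUND held TGACGTCA at 200 to 193 bases before the start, a sequence found in 1.63% of the windows. JUNB held none of these 3 octamers, and TGACTCA, which was found in 4.22% of the windows, was in none of the 3 promoters. JUNB held the TATA box letters TATAAA 31 to 26 bases before its start, as did 10.8% of the windows, and CCAAT was present in all 3 genes and in 32.0% of the windows. The GC box letters GGGCGG occurred in JUN and JUND, as in 42.5% of the windows, and the CArG box, which was found in 1.16% of the windows, in none of the 3. GC content of the 250 bases was 62.0% for JUN, 70.8% for JUNB and 74.8% for JUND, against a median of 58.0% over the windows.

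Of the 9 pairs of a Jun gene and a Jun-family protein, 8 had a promoter peak in A549 and 2 in B2B. In A549, all 3 proteins peaked at JUN and at JUND, and Jun and JunB but not JunD at JUNB. In B2B, Jun alone peaked, at JUN and at JUND, and no Jun-family peak was listed at JUNB. The plot of peaks by distance from the gene start shows that at JUN and JUND the peaks of all proteins lay on the same short stretch just before the start.

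**Figure D1:**
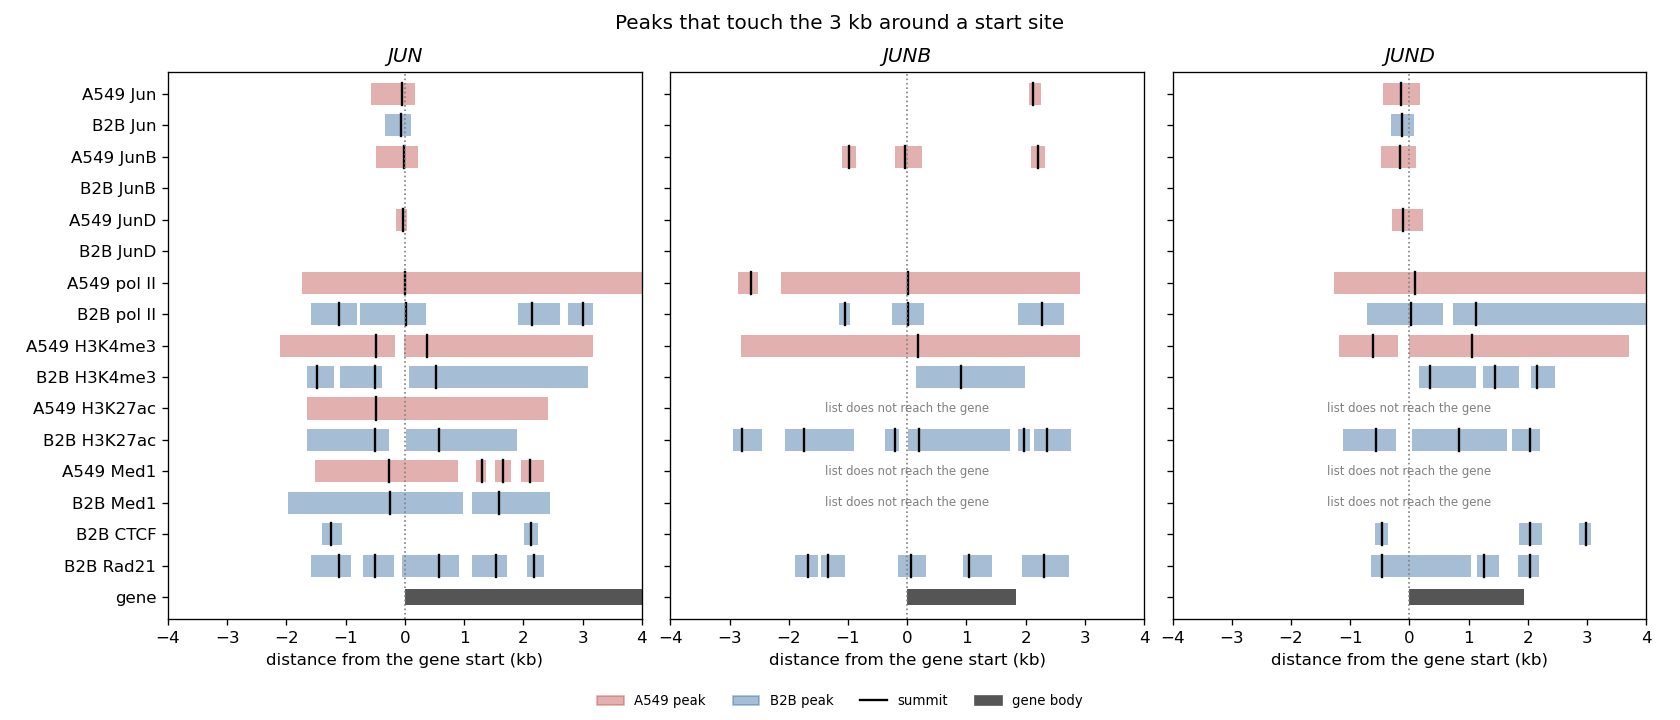
Peaks of each list (rows) that touch the 3 kb around a start site of JUN, JUNB or JUND, by distance from the gene start in kb (negative is upstream), with A549 in red, B2B in blue and the summit as a black line; wide peaks are drawn to 4 kb only. Jun-family summits lie within 158 bp of the start at JUN and JUND, whereas at JUNB they lie up to 2216 bp away and only in A549.

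These counts were read against all protein-coding genes. In A549, a Jun promoter peak was found for 38.2% of the genes, against 3 of the 3 Jun genes. A549 JunB peaked at 31.1% of the genes, against 3 of 3, and A549 JunD at 17.8%, against 2 of 3. In B2B, Jun peaked at 25.4% of the genes, against 2 of 3, JunB at 5.28%, against 0 of 3, and JunD at 3.21%, against 0 of 3. Promoter peaks of all 3 proteins in A549 were listed for 13.7% of the genes, among them JUN and JUND. Those peaks together with Jun as the only one of the proteins in B2B were listed for 5.27% of the genes, again with JUN and JUND among them. A Jun peak in A549 with none in B2B was listed for 19.3% of genes and for JUNB. JunB in A549 alone was listed for 26.7% of genes and for all 3 Jun genes, and JunD in A549 alone for 16.2% of genes and for JUN and JUND.

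JUN (ENSG00000177606.9, chr1:58776845-58784048, minus strand) encodes c-Jun, the protein listed here as Jun. Its A549 Jun peak, chr1:58783875-58784624, had a fold enrichment of 47.4 over the local background and a −log10 q of 172, with the summit 52 bp upstream of the start. That peak ranked 179th among 7652 protein-coding genes with a Jun promoter peak in A549. JunB had a fold enrichment of 11.0 there, with the summit 21 bp upstream, and JunD one of 7.83, with the summit 39 bp upstream. The B2B Jun peak, chr1:58783946-58784380, had a fold enrichment of 9.71, and its summit lay 71 bp upstream, 19 bp from the A549 summit. Both Jun summits stood next to the octamer TGACATCA, 11.5 bp from its centre in A549 and 7.50 bp in B2B. The other octamer, TTACCTCA, was 130 bp and 112 bp away from them.

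JUND (ENSG00000130522.6, chr19:18279694-18281622, minus strand) encodes JunD, the member that is generally present in resting cells. Its A549 Jun peak, chr19:18281438-18282072, was the strongest of the 3 genes, with a fold enrichment of 52.8, a −log10 q of 219 and rank 114 of 7652. JunB followed with a fold enrichment of 14.1 and JunD with 9.49, so that the order of the 3 proteins by fold enrichment was the same as at JUN. Fold enrichment depends on the background of each list, and by rank within its own A549 list JunD stood above JunB. At JUND it was in the top 7.73% of genes with a peak, against 14.4% for JunB, and at JUN in the top 14.9%, against 21.7%. The Jun summit lay 138 bp upstream of the start in A549 and 128 bp upstream in B2B, the JunB summit 158 bp and the JunD summit 105 bp upstream. Nearest to TGACGTCA was the JunB summit, at 38.5 bp from its centre, and the Jun summits were 58.5 bp and 68.5 bp from it. The B2B Jun peak had a fold enrichment of 4.74.

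JUNB (ENSG00000171223.6, chr19:12791486-12793315, plus strand), whose product is often a weaker activator than Jun, lies inside an intron of HOOK2 transcripts on the other strand. It had weaker peaks than the other genes. A549 JunB had 3 peaks in the window, with fold enrichments of 5.22 at 977 bp upstream, 4.65 at 38 bp upstream and 5.03 at 2216 bp downstream. The only Jun peak, chr19:12793544-12793738, lay past the end of the gene, 2125 bp downstream of the start, with a fold enrichment of 5.98 and rank 6385 of 7652. Its summit was nearer to a start site of HOOK2, 1.0 kb away, than to that of JUNB. This Jun peak was lost when the distance to a start site was set to 1 kb. JUNB was therefore in the lower part of the A549 Jun list by this measure, and JUN and JUND were near its top.

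Fold enrichment divides the reads piled up at a summit by the background that the peak caller MACS2 assumed there, and both numbers could be solved from the deposited values. This matters for the comparison of the lines, because the background at these promoters differed more than the reads. At JUN, the A549 Jun summit had a pileup of 118 reads (exact Poisson 95% interval 97.7 to 141) on a background of 1.51 reads. The B2B Jun summit had a pileup of 178 reads (153 to 206) on a background of 17.4 reads. To allow for depth, each pileup was divided by the lowest background of its own list, which gave 119 in A549 and 153 in B2B. On that scale A549 stood at 0.775 times B2B (0.609 to 0.984), whereas by fold enrichment it stood at 4.89 times.

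The same turn was seen at JUND. The A549 Jun pileup was 149 reads (126 to 175) on a background of 1.84 reads, and the B2B pileup was 216 reads (188 to 247) on a background of 44.8 reads. Relative to the lowest background, the pileups were 150 for A549 and 186 for B2B, and A549 stood at 0.807 times B2B (0.650 to 0.998), against 11.1 times by fold enrichment. On this scale no local background was subtracted at either gene, although at JUND it was 44.8 reads beside 216 in B2B. Whether the ratios stay below 1 with it subtracted was not tested. By pileup, JUND ranked 9th and JUN 45th among the 5081 genes with a Jun promoter peak in B2B, but by fold enrichment they ranked 4323rd and 2155th. In A549 their ranks by pileup were 108 and 257 of 7652, close to those by fold enrichment. The Jun signal at both promoters was thus high in both lines, and the direction of the difference between the lines depended on the background used.

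**Figure D2:**
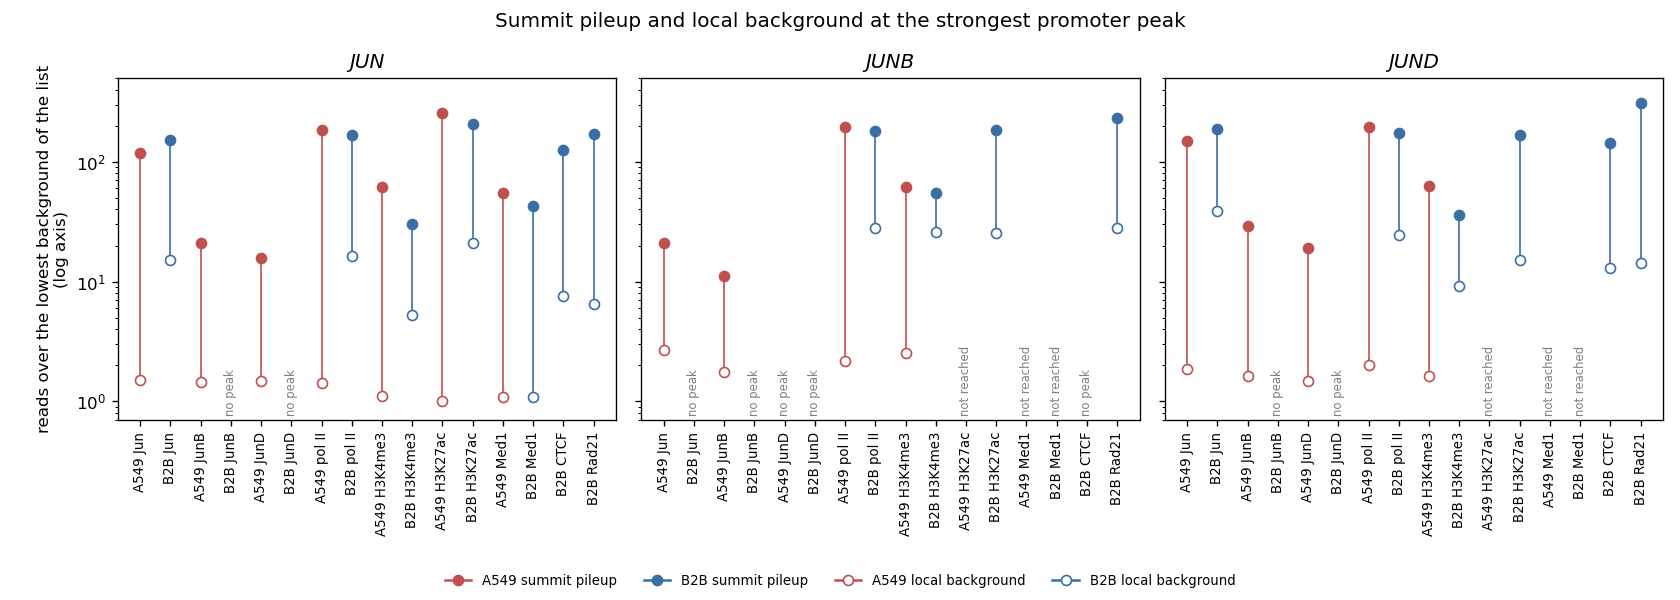
Reads at the summit (filled) and local background (open) of the strongest promoter peak of each gene in each list, both divided by the lowest background of the list, on a log axis, with A549 in red and B2B in blue. The filled points of the 2 lines stand close together for Jun at JUN (119 and 153) and JUND (150 and 186), and the open points of B2B stand higher (15.0 and 38.5, against 1.51 and 1.85).

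The high background also bears on the peaks that B2B lacks. Where B2B Jun and JunB summits lay within 10 bp of each other and the Jun background was at least 10 times its lowest, the relative background of JunB was a median of 1.07 times that of Jun (5th to 95th percentile 0.826 to 1.23, 103 pairs). For JunD the ratio was 1.17 (1.00 to 1.38, 63 pairs) and for pol II 1.13 (0.955 to 1.26, 78 pairs). For Med1 it was 0.0841 (0.0329 to 0.228, 73 pairs), so the high background was not shared by every B2B list. In A549 the ratio was 0.156 for JunB (46 pairs) and 1.09 for JunD (58 pairs). Such pairs need a called peak in both lists, so whether the background was shared where no peak was called is not known. With the relative background of 15.0 that the Jun list had at JUN, a B2B JunB pileup needed 55 reads to reach the lowest −log10 p of its list, or 28.3 times the lowest background. The A549 JunB pileup at JUN was 21.0 on that scale. At JUND, with a relative background of 38.5, the limit was 59.2, and the A549 JunB pileup was 29.3. For JunD the limits were 28.8 at JUN and 59.7 at JUND, and the A549 pileups were 15.6 and 19. At JUNB, the B2B pol II background of 28.1, 21 bp downstream of the start, put the limits at 49.0 for Jun and 45.8 for JunB. The A549 pileups were 21.1 for Jun and 11.2 for JunB, but at other places, 2125 bp downstream and 977 bp upstream. B2B pol II backgrounds nearer to these were 31.6 at 2270 bp downstream and 14.7 at 1049 bp upstream, and limits on them were not computed. On the backgrounds used for these limits, a pileup at the A549 level would not have been listed in B2B at any of these pairs. Absent binding and high background therefore cannot be told apart there.

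Pol II, H3K4me3, H3K27ac and Med1 had peaks at every Jun gene that their list reached, 8 of 8 pairs in A549 and 10 of 10 in B2B. JUN was reached by all 16 lists. JUNB and JUND, on chromosome 19, lie past the ends of both Med1 lists and of the A549 H3K27ac list. Pol II peaked at 69.6% of all genes in A549 and 50.9% in B2B, H3K4me3 at 73.7% and 62.7%, H3K27ac at 73.5% and 64.9%, and Med1 at 54.6% and 61.0%, so a peak of these at 3 genes is near the background.

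The pol II lists covered more of the promoter windows in A549, on a lower background. The relative background of the peaks in these windows was 1.43 to 2.17 in A549 and 5.68 to 31.6 in B2B, and its part in the width of the peaks was not tested. At JUN, 1 A549 peak of 6137 bp took up 79.1% of the promoter window, against 4 B2B peaks and 47.3%. At JUNB the share was 90.0% in A549 and 25.1% in B2B, and at JUND it was 74.3% and 63.2%. The A549 peak over JUND was 11330 bp wide and ran from 1277 bp upstream far past the end of the gene. Fold enrichments were 90.4, 69.9 and 75.2 at JUN, JUNB and JUND in A549 and 9.76, 6.35 and 6.96 in B2B. The summit pileups were 303, 320 and 323 reads in A549 and 278, 304 and 289 reads in B2B, with ratios on the depth scale of 1.10 (0.935 to 1.30), 1.07 (0.908 to 1.25) and 1.13 (0.963 to 1.33). All 3 intervals include 1. These pileups were between 87.1% and 97.3% of the highest in their lists, and whether the range of the lists has a ceiling was not tested.

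H3K4me3, the mark of active promoters, flanked the Jun summits at JUN and JUND. At JUN, the 2 A549 H3K4me3 peaks left a gap of 148 bp, chr1:58784067-58784214, which held the summits of A549 Jun, JunB and JunD and of B2B Jun. At JUND, a gap of 192 bp, chr19:18281629-18281820, held the same 4 summits. The A549 H3K4me3 peak over JUNB, of 5725 bp, was unbroken and held the JunB summit at the start within it. In B2B the JUN gap was 456 bp, and at JUND all 3 H3K4me3 peaks lay downstream of the start. B2B H3K27ac had gaps at the same places, of 285 bp at JUN and 280 bp at JUND. The A549 H3K27ac peak at JUN, of 4056 bp, was unbroken and held the Jun-family summits within it. Fold enrichments of H3K4me3 were 40.6, 21.1 and 30.5 at JUN, JUNB and JUND in A549 and 5.40, 2.10 and 3.82 in B2B. At the strongest peak of each line, the pileups over the lowest background stood at ratios of A549 to B2B of 2.03 (1.53 to 2.71) at JUN, 1.12 (0.886 to 1.43) at JUNB and 1.71 (1.31 to 2.25) at JUND. The intervals at JUN and JUND exclude 1, but the summits compared lay 999 bp apart at JUN and 1103 bp at JUND (718 bp at JUNB). These ratios therefore set different places side by side. In B2B the peak with the highest fold enrichment was not the one with the most reads at JUN and JUND. Nearer the A549 summits, the values were 53.7 in B2B (500 bp upstream) against 61.3 in A549 (487 bp upstream) at JUN. At JUND they were 60.1 (1443 bp downstream) against 62.2 (1050 bp downstream). The highest pileups in the window, over the lowest background, were 65.0, 61.7 and 62.2 in A549 and 60.5, 54.9 and 60.1 in B2B.

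H3K27ac, a mark of active promoters and enhancers, could be compared between the lines at JUN only. Its fold enrichment there was 142 in A549, rank 37 of 9240 genes, and 9.66 in B2B, rank 2833 of 13001. The pileups were 319 and 298 reads and the backgrounds 1.25 and 29.9 reads, so that the ratio on the depth scale was 1.24 (1.05 to 1.46). Med1, a subunit of the Mediator complex that links enhancers to pol II, had the lowest relative background of the B2B lists at JUN, 1.09. Its fold enrichments were 29.3 in A549 and 23.4 in B2B, its backgrounds 1.35 and 1.44 reads, and its pileups 68 and 56 reads, a ratio of 1.29 (0.891 to 1.87) that includes 1. In B2B, H3K27ac also peaked at JUNB (6 peaks, up to a fold enrichment of 7.03) and at JUND (3 peaks, up to 10.7).

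CTCF, the insulator protein, peaked in B2B at JUN and JUND but not within 3 kb of JUNB, and at 50.1% of all genes. Rad21, a cohesin subunit, peaked at all 3 Jun genes and at 67.9% of all genes. At JUND the CTCF summit 2035 bp downstream of the start, just past the end of the gene, had a fold enrichment of 10.6 and lay 7 bp from a Rad21 summit with 19.8. At JUN the CTCF summit 1241 bp upstream had a fold enrichment of 15.5 and lay 132 bp from a Rad21 summit with 12.4, and with a distance of 1 kb no CTCF peak was left at JUN. A CTCF summit inside JUN, 2124 bp downstream of the start, had 7.25 and lay 61 bp from the strongest Rad21 summit, with 22.0. The CTCF summit nearest to JUNB was 5211 bp downstream of its start.

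Within 100 kb of the 3 genes, the peaks of the 3 proteins in both lines merged into 35 regions, of which 13 were called in both lines, 15 in A549 alone and 7 in B2B alone. Of all 72011 regions of the genome, those found only in A549 made up 34.1% and those found only in B2B 39.4%. JUN had 13 regions, 6 in both lines, 2 in A549 alone and 5 in B2B alone, and JUND had 14, with 7, 5 and 2. All 8 regions around JUNB were called in A549 alone. The share called in both lines was 46.2% for JUN (Wilson 95% interval 23.2% to 70.9%), 0 of 8 for JUNB (up to 32.4%) and 7 of 14 for JUND (26.8% to 73.2%), against 26.5% (26.2% to 26.9%) of all regions. Neighbouring regions share a locus, so these intervals are too narrow.

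**Figure D3:**
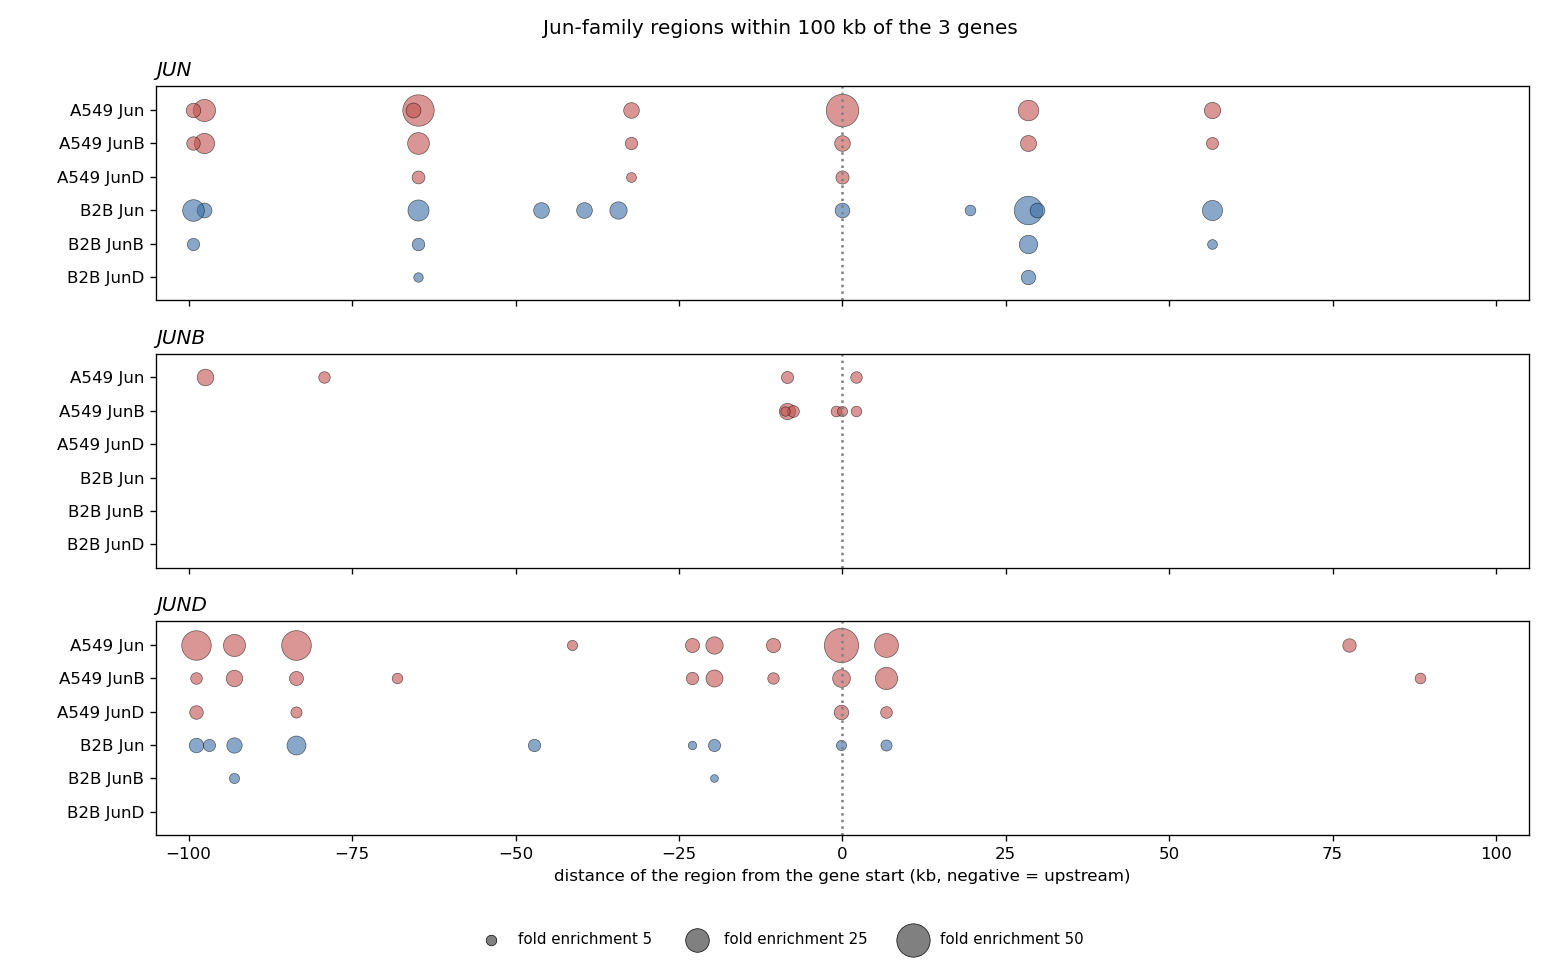
Jun-family regions within 100 kb of JUN, JUNB and JUND by distance from the gene start in kb (negative is upstream), with a row for each list, A549 in red, B2B in blue and the area of each point set by the fold enrichment. Around JUN, both lines have points on both sides of the gene, around JUNB only A549 has points, and B2B JunD has points only around JUN, at 64.9 kb upstream and 28.4 kb downstream.

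The order of the regions depended on the background as well. Summed over the 6 lists, the fold enrichment was highest, at 104, in a region 64.9 kb upstream of JUN, followed by 91.7 in one 28.4 kb downstream of JUN, 81.1 at the JUND promoter and 76.0 at the JUN promoter. With summed pileups over the lowest background, the JUND promoter came first with 383 and the JUN promoter next with 308, and the 2 distant regions of JUN had 232 and 157.

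The first of these lay 64.9 kb upstream of JUN, chr1:58848627-58849407, in introns of LINC01135, a noncoding gene that starts beside JUN and runs the other way, and of ENSG00000231740. All 3 proteins were called there in both lines, with fold enrichments of 44.4, 21.3 and 7.39 for Jun, JunB and JunD in A549 and 20.0, 7.10 and 4.02 in B2B. Pileups over the lowest background were 88.4, 31.2 and 11.5 in A549 and 67.0, 23.1 and 11.2 in B2B. There were 2 A549 Med1 peaks and 1 B2B Med1 peak on it, a B2B CTCF and a B2B Rad21 peak, and no H3K27ac or H3K4me3 peak in either line.

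The other distant region lay 28.4 kb downstream of JUN, chr1:58755270-58755928, in an intron of the gene ENSG00000283445, and was stronger in B2B. Jun had fold enrichments of 36.5 in B2B and 19 in A549, JunB 15.3 and 11.5, and JunD 9.39 in B2B with no peak in A549. All of these peaks stood on the lowest background of their list, over which the Jun pileups were 67.0 in B2B and 37.2 in A549. One region, 32.3 kb upstream of JUN at chr1:58816123-58816551, had all 3 proteins in A549, with 11.0, 6.89 and 4.36, and none in B2B. A549 had pol II, H3K4me3, H3K27ac and Med1 peaks on it, and B2B had pol II, H3K27ac, Med1, CTCF and Rad21 peaks. The A549 pileups over the lowest background were 21.1, 9.76 and 7.49, and the background of the B2B Jun-family lists there is not known. The 5 regions around JUN called in B2B alone each had Jun only, with fold enrichments of 5.08 to 13.5.

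Around JUND, the 3 regions with the highest summed fold enrichment were its promoter and 2 sites far upstream. At chr19:18364900-18365378, 83.5 kb upstream in an exon of PGPEP1, fold enrichments of Jun, JunB and JunD were 39.7, 8.91 and 5.58 in A549 and that of Jun in B2B was 16.2. At chr19:18380091-18380799, 98.9 kb upstream in an intron of GDF15, they were 39.3, 6.06 and 8.29, and 9.52 for B2B Jun. A region 6.6 kb downstream of JUND, chr19:18274599-18275200, followed, with 25.7, 22.1 and 6.20 in A549 and 5.55 for B2B Jun. It lies 0.5 kb from the nearest start site of IQCN, and its JunB fold enrichment was above that at the JUND promoter. By summed pileup, the order after the promoter was another one. It was led by a region 93.0 kb upstream, chr19:18374443-18374798, between genes, with 233, and by the one 6.6 kb downstream, with 215. The sites at 83.5 kb, with 199, and 98.9 kb, with 160, came after them. The region at 93.0 kb lies 0.1 kb from the nearest start site of GDF15, and the one at 98.9 kb lies 1.6 kb from it. Fold enrichments at 93.0 kb were 21.9 for Jun and 12.2 for JunB in A549 and 10.6 and 4.64 in B2B, where the relative backgrounds were 8.66 and 10.2. Of the 14 regions around JUND, 4 had all 3 proteins in A549, against 9.26% of all regions, and 0 had all 3 in B2B, against 6.07%, which is near the background at this number of regions.

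Around JUNB, the region first by both sums was chr19:12782900-12783406, 8.4 kb upstream in a HOOK2 intron, with 12.0 for JunB and 6.61 for Jun in A549. By fold enrichment it was followed by a Jun peak with 12.5 at 97.6 kb upstream, chr19:12693780-12694039, in a FBXW9 intron, and by the site past the end of JUNB, with 5.98 for Jun and 5.03 for JunB, and by pileup these 2 changed places. No JunD peak was found within 100 kb of JUNB in either line, and no B2B peak of Jun or JunB. Over regions more than 3 kb from the 3 genes, the relative background of the Jun list was 1.00 to 2.19 in A549, with a median of 1.37, and 1.00 to 13.5 in B2B, with a median of 2.12. The B2B values came from called peaks around JUN and JUND only, so they do not give the B2B background around JUNB.

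The heptamer TGACTCA lay under some of the distant regions and under none of the promoter peaks. The 3 windows below reach 50 bases to each side of a Jun-family summit in hg38 and are given on the plus strand, with TGACTCA or its reverse complement TGAGTCA in capitals. They come from the region of each gene, outside its promoter, with the highest summed fold enrichment. Only regions that held the heptamer within 50 bp of the summit of their strongest peak were considered. By summed pileup, the JUNB region stayed first, whereas the regions 56.5 kb downstream of JUN, with 93.1 against 92.4, and 93.0 kb upstream of JUND, with 233 against 215, came before those shown.
JUN, 97.6 kb upstream, chr1:58881636-58881736: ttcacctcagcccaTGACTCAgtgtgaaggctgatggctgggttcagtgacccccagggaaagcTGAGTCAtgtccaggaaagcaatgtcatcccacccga
JUNB, 8.4 kb upstream, chr19:12783028-12783128: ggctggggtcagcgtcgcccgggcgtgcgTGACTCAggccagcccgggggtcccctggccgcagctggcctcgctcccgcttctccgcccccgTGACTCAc
JUND, 6.6 kb downstream, chr19:18274950-18275050: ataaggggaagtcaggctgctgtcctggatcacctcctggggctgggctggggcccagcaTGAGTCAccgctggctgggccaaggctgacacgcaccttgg

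The windows of JUN and JUNB held it 2 times each. The JUN region, chr1:58881402-58881906, had fold enrichments of 22.0 for Jun and 18.4 for JunB in A549 and 9.92 for Jun in B2B. The heptamer centre closest to a summit was 17 bp away at JUN, 18 bp at JUNB and 13 bp at JUND. The regions of JUN at 64.9 kb and 28.4 kb and its promoter had none within 50 bp of the summit of their strongest peak. Of the 2 B2B JunD peaks around JUN, which lay in these 2 distant regions, 1 held the heptamer within 50 bp of its own summit.

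By list, the heptamer lay within 50 bp of the summit of 9 of 22 A549 Jun peaks within 100 kb of the 3 genes, 9 of 23 A549 JunB peaks and 1 of 7 A549 JunD peaks. In B2B it was 11 of 20 for Jun, 4 of 6 for JunB and 1 of 2 for JunD. Over the whole lists the shares were 42.0%, 46.2% and 34.2% in A549 and 39.8%, 53.6% and 42.8% in B2B. In the promoter windows the heptamer was found under 0 of 3 Jun, 0 of 5 JunB and 0 of 2 JunD peaks in A549 and under 0 of 2 Jun peaks in B2B.

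Some Med1 peaks around JUN lay away from any start site. Of the 5 A549 Med1 peaks within 100 kb of JUN that were over 3 kb from its start sites and 1 kb from any start site, all 5 overlapped a JunB peak, 4 a Jun peak and 2 a JunD peak. Of all 9770 A549 Med1 peaks over 1 kb from any start site, 49.7% overlapped JunB, 31.2% Jun and 22.5% JunD. In B2B, both of the 2 such Med1 peaks around JUN carried all 3 proteins, as did 12.0% of all 8215. None of the 2 A549 and 0 of 1 B2B H3K27ac peaks of this kind around JUN carried a Jun-family peak, against shares of 21.9% and 24.6% over the whole lists. Around JUND, 4 of 15 such B2B H3K27ac peaks did, and around JUNB 0 of 4. These counts are small and were not tested against the shares of the whole lists.

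JUN and JUND had similar patterns over the 13 lists that reach chromosome 19. Likeness was the Euclidean distance between the log2 fold enrichments of the strongest promoter peaks, with 0 for no peak, over 17898 protein-coding genes of chromosomes 1 to 19. The genes most like JUN were RAB27A (distance 1.22), a GTPase of vesicle release, CIC (1.45), a transcriptional repressor, and JUND (1.54), against a median of 9.10. Most like JUND were TPM4 (1.38), a tropomyosin, UPP1 (1.39), a uridine phosphorylase, and ISG15 (1.42), a ubiquitin-like protein, against a median of 8.84. JUN was the 7th nearest gene to JUND. JUNB stood apart from both, at 7.14 from JUN and 6.50 from JUND, and was most like ZNF414 (0.93), MYO1E (0.98) and SLC25A33 (1.07), against a median of 6.17. Its values of 0 for A549 JunD, B2B Jun and B2B CTCF enter these distances. For B2B Jun, absent binding and high background cannot be told apart.

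The partners of the Jun proteins were compared with the members by a list of 11 genes of the Fos, ATF and BATF families and JDP2. Of these, 6 (54.5%, against 38.2% of all genes) had a Jun promoter peak in A549 and 5 (45.5%, against 25.4%) in B2B. JunB peaked at 6 in A549 (54.5%, against 31.1%) and at 2 in B2B (18.2%, against 5.28%). JunD peaked at 5 in A549 (45.5%, against 17.8%) and at 0 in B2B (against 3.21%). All 3 proteins peaked in A549 at 5 of the 11, against 13.7% of all genes. These were FOS, FOSB, FOSL1, FOSL2 and ATF3, the Fos genes and a stress-induced ATF gene. Their A549 Jun fold enrichments were 9.96, 32.7, 43.5, 48.5 and 55.7, so that JUN at 47.4 and JUND at 52.8 lay within their range and JUNB at 5.98 below it. Their B2B Jun fold enrichments were 2.85, 3.91, 11.5, 3.97 and 17.4. Pileups over the lowest background were 29.1, 103, 119, 141 and 155 in A549 and 72.1, 87.6, 76.4, 89.3 and 47.2 in B2B, so that at FOS, as at JUN and JUND, the direction between the lines turned with the measure. ATF2, ATF7, BATF, BATF2 and BATF3 had no Jun-family peak at the promoter in either line, although pol II and H3K4me3 peaked at ATF2 and ATF7 in both.

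**Figure D4:**
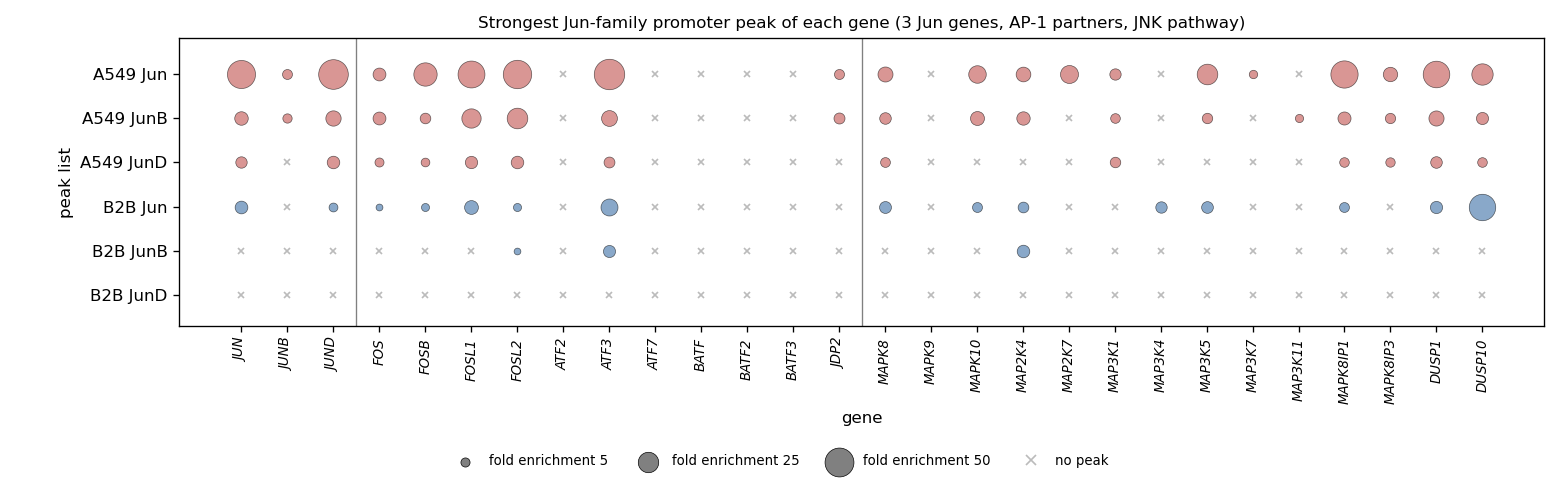
Fold enrichment of the strongest Jun-family promoter peak (area of each point) of the 3 Jun genes, 11 AP-1 partners and 14 JNK pathway genes (columns) in each Jun-family list (rows), with A549 in red, B2B in blue and a cross where no peak was listed. JUN and JUND have the same rows filled as FOS, FOSB and FOSL1, and the B2B JunD row is empty for all genes.

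Of 14 genes of the JNK pathway, which phosphorylates Jun, 11 (78.6%, against 38.2% of all genes) had a Jun promoter peak in A549 and 8 (57.1%, against 25.4%) in B2B. JunB peaked at 10 in A549 (71.4%, against 31.1%) and at 1 in B2B (7.14%, near the 5.28% of all genes). JunD peaked at 6 in A549 (42.9%, against 17.8%) and at 0 in B2B (against 3.21%). The shares of all genes include genes without a pol II peak, which 69.6% had in A549, and shares among genes with one were not computed. All 3 proteins peaked in A549 at 6 of the 14, against 13.7% of all genes. These were MAPK8, which encodes JNK1, the kinase gene MAP3K1, the scaffold genes MAPK8IP1 and MAPK8IP3 and the phosphatase genes DUSP1 and DUSP10, whose products remove JNK phosphate. At DUSP10, the Jun fold enrichment was 42.0 in B2B and 27.4 in A549, and the pileup over the lowest background 77.3 and 65.3, so that B2B was higher on both scales. At JUN and JUND B2B was higher by pileup only, as at MAPK8 (39.5 in B2B, 29.1 in A549) and MAPK8IP1 (117 and 103) of this list. Counting intervals for the differences at the JNK pathway genes were not computed. The only gene of this list without a Jun-family promoter peak in either line was MAPK9.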

How the data were processed

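Peak lists of 16 ChIP-seq targets and lines were analysed. Per the methods and the submitters' processing notes, the authors aligned reads to hg38 with Bowtie2 2.4.4, removed duplicates, merged the 2 replicates, scaled by read number with SAMtools 1.13 and called peaks with MACS2 2.2.7.1. The control and options of the caller were not given in the sources used here. The deposited score was 10 times −log10 q. The fold enrichment was the deposited ratio of summit to local background. The authors also gave each peak as −log10 of a p-value and of a q-value, with a lowest value just above 2 in each list. Depths are unknown, and summit reads are the only counts behind a value.

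Start sites came from GENCODE release 44, and a peak counted with an overlap of 1 bp. Summit pileup and background were solved from fold enrichment, (pileup + 1)/(background + 1), and the Poisson p-value. For 475202 of 475211 peaks a whole pileup gave the p-value to within 0.02 or 0.1%. Python 3.11.15, NumPy 2.4.6, SciPy 1.17.1, pysam 0.24.0, samtools 1.23.1 and Matplotlib 3.10.9 were used. Overlaps were tested on simulated data against bedtools 2.31.1, and the pileup solution on simulated peaks.

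The members, gene lists and tests were chosen with earlier results of these data known. Named genes were the members, the 3 genes nearest in pattern to each, and genes of the fixed lists with all 3 proteins at the promoter in one line or none in either. Named regions were the 3 with the highest summed fold enrichment per member and any with all 3 proteins in one line and none in the other. Other regions named were chosen after their values were seen. So were the comparison and the ranking by pileups. Alternatives were distances of 1 kb and 5 kb, windows of 50 kb and 200 kb, a −log10 q of at least 5, lists of equal length by −log10 p, summits in place of overlaps, the main start site alone and wider motif windows.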

Additional observations from a re-analysis of the deposited data

How the results depend on the processing

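The numbers of promoter pairs with a peak (8 of 9 and 2 of 9 for the Jun family, 8 and 10 for the marks) stayed within 1.5 times under distances of 1 kb and 5 kb, a −log10 q of at least 5, lists of equal length, summits in the window and the main start site alone, where the A549 Jun-family count was 7 or 8 and the B2B count 2. With lists of equal length, marks past the end of either list were left out, which made 8 of 8 pairs in B2B. Around the genes, a window of 50 kb gave 6 regions in both lines, 9 in A549 alone and 6 in B2B alone, and one of 200 kb gave 17, 21 and 16. With lists of equal length, A549 alone fell to 9 regions. The share of Jun-family peaks with the heptamer stayed within its counting interval in each line. The stricter q changed the covered length only for A549 Med1 at JUN, from 3236 to 3067 bp, and 6 of the strongest fold enrichments, all of B2B H3K4me3, CTCF or Rad21, were lower within 1 kb. That distance also ended 2 calls, B2B CTCF at JUN (15.5) and A549 Jun at JUNB (5.98). Changes of direction came from the background. Jun in A549 over B2B fell from 4.89 to 0.775 at JUN and from 11.1 to 0.807 at JUND. There, the summit pileup over the lowest background of the list replaced fold enrichment, with no local background subtracted, an alternative chosen after seeing the data. Summed in the same way, the promoter region of JUN moved from rank 3 to 1 among the regions around the gene and that of JUNB from 3 to 2. No paired analysis was possible because the authors merged the replicates before calling peaks, and for the same reason no replicate could be left out.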
